A study of Mus musculus with 16 samples.

Results

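The comparison described here sets all 8 libraries of dendritic cells that lack the transcription factor XBP1 against all 8 wild-type libraries, which together are the 16 libraries of the series. Members were chosen by genotype alone, as given by the label of each library. Small RNA was sequenced from conventional type 1 dendritic cells (cDC1s), the spleen subset specialised in presenting captured antigen to CD8 T cells, of C57BL6 mice. The deficient libraries were 4 from Xbp1 KO cells and 4 from Xbp1-Ire1 KO cells, which lack XBP1 and also the stress sensor IRE1. Each deficient genotype had a wild-type (WT) group of 4 libraries of its own, so the series holds an Xbp1 line and an Ire1-Xbp1 line of 8 libraries each. What both deficient genotypes share is the loss of XBP1. Neither the alleles and their Cre driver nor the age of the mice or any pooling of animals is given in the sources used here. Between 5000 and 50000 sorted cells went into each library. No label ties a replicate to a mouse, and the spread that the p-values rest on is that between libraries, which may be technical.

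IRE1 spans the membrane of the endoplasmic reticulum and responds to unfolded protein. Its ribonuclease removes a short stretch from the Xbp1 mRNA, which then encodes the active transcription factor, and it can also cut other RNAs. Xbp1 loss on its own leaves the ribonuclease in place, whereas compound loss targets both proteins. Mature microRNAs are short RNAs that guide Argonaute proteins to messenger RNAs and lower their translation and stability. An effect common to both lines asks which microRNAs differ when XBP1 is missing, whether or not IRE1 is present.

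Libraries held between 175165 and 1403393 microRNA counts, and depth showed no difference with genotype beyond the spread of the libraries. The mean log2 total was 19.4 ± 0.983 (SD, n = 8) in deficient and 19.2 ± 0.706 in wild-type libraries, a difference within lines of 0.15 (exact two-sided permutation test with labels exchanged within each line, p = 0.667, adjusted over 3 library measures 0.989). This average joins a difference of 0.44 in the Xbp1 line and of −0.13 in the Ire1-Xbp1 line. After every library was thinned to 175165 counts, 320.6 ± 13.2 microRNAs were detected in deficient and 320.4 ± 21.5 in wild-type libraries (exact permutation p = 0.989). The Xbp1 and Ern1 messenger RNAs, and the messenger RNAs that define cDC1s, are not part of a microRNA table, so neither genotype nor cell type was checked against them. MicroRNAs are named by miRBase accession (MIMAT numbers), and neither the files nor the reference tables pair these numbers with names or sequences. Therefore 2 microRNAs that rose and 2 that fell are identified, and the others are described by their levels, changes and counts.

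Of 255 microRNAs tested, 21 changed on average across both lines in XBP1-deficient cDC1s. There were 8 that rose (3.14%) and 13 that fell (5.1%), together 8.24% of those tested (edgeR quasi-likelihood test with the line as a term, Benjamini-Hochberg adjusted p under 0.05 over all 255). Levels are given as CPM, the usual scaling of counts to library size, on library sizes scaled by the trimmed mean of M values (TMM). The fold changes of the microRNAs that rose lay between 0.44 and 2.97 on the log2 scale, with a median of 0.81. The 2.97 belonged to 1 microRNA of low abundance (mean 9.14 CPM, SE 0.88), and the next largest rise was 1.22. Those of the microRNAs that fell lay between −1.86 and −0.42, with a median of −0.81. Over all 255 the median log2 fold change was −0.01 and 127 estimates were above 0, a centring that TMM scaling sets. An unadjusted p under 0.05 was seen for 53 microRNAs, 26 higher and 27 lower. The largest adjusted p among the 21 was 0.0456 and the next microRNA stood at 0.0717.

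**Figure D1:**
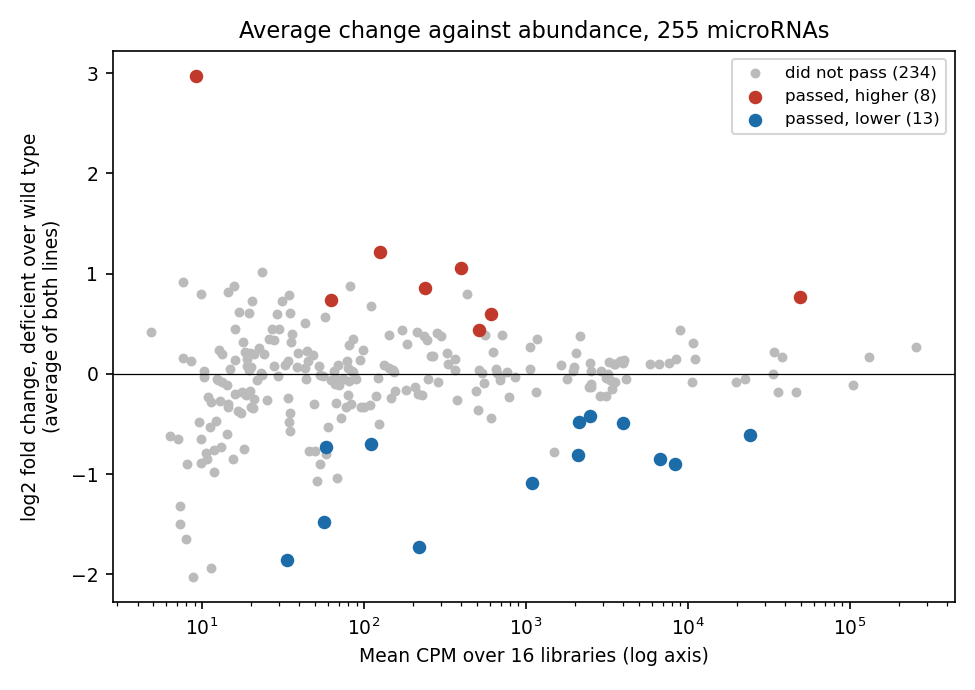
Average log2 fold change of deficient over wild-type libraries (vertical axis) against the mean CPM over 16 libraries (horizontal log axis), 1 point per microRNA, for 255 microRNAs. The 8 that passed as higher and the 13 that passed as lower lie apart from most points, and 8 of the 13 that fell against 4 of the 8 that rose are in the most abundant group, above 286 CPM.

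The microRNA with the smallest p fell in every deficient library. In the Xbp1 line, MIMAT0000165, of intermediate abundance, stood at 323, 287, 324 and 375 CPM in wild-type and at 139, 114, 56.2 and 109 CPM in deficient libraries. In the Ire1-Xbp1 line it stood at 615, 274, 221 and 272 CPM in the wild type and at 104, 80.6, 105 and 95.1 CPM in compound-deficient cells. The lowest wild-type library was above the highest deficient one in the whole series, with 1 wild-type library of the Ire1-Xbp1 line far above the others. The mean fell from 336 ± 122 CPM (SD, n = 8) to 100.3 ± 24.4 CPM, or 3.32-fold (log2 fold change −1.73, SE 0.21, 95% interval −2.17 to −1.29, edgeR adjusted p = 2.11e-05). The raw counts behind the deficient libraries were as few as 18, so single values are less precise there than in the abundant microRNAs.

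MIMAT0000531, one of the 10 most abundant microRNAs, also fell. In the Xbp1 line it stood at 31196, 27293, 30054 and 29363 CPM in wild-type and at 20054, 22551, 21529 and 22181 CPM in deficient libraries. In the Ire1-Xbp1 line the wild-type libraries held 24370, 32513, 30962 and 26853 CPM and the compound-deficient libraries 17514, 17131, 15152 and 17323 CPM. The 8 deficient libraries again lay wholly below the 8 wild-type libraries, and the compound-deficient libraries were the lowest of all. The mean fell from 29076 ± 2704 CPM (SD, n = 8) to 19179 ± 2759 CPM, or by 0.61 on the log2 scale (SE 0.08, 95% interval of the change −0.79 to −0.44, edgeR adjusted p = 6.26e-05). It fell by 0.45 on the log2 scale in the Xbp1 line and by 0.77 in the Ire1-Xbp1 line, and these changes differed by −0.32 (interval −0.63 to −0.01; edgeR adjusted p = 0.443).

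MIMAT0000539 rose, and with the fourth highest mean level of all microRNAs tested it was the most abundant of the 8 that did. The Xbp1-line libraries held 39005, 37565, 34781 and 37019 CPM in the wild type and 62550, 56736, 67784 and 52161 CPM in Xbp1-deficient cells. The Ire1-Xbp1-line libraries held 38990, 27690, 39270 and 35885 CPM in the wild type and 87509, 53102, 67022 and 47392 CPM in compound-deficient cells. Every deficient library exceeded every wild-type library, and the compound-deficient libraries were the most spread. The mean rose from 36276 ± 3819 CPM (SD, n = 8) to 61782 ± 12685 CPM, or 1.70-fold (log2 fold change 0.77, SE 0.11, interval 0.53 to 1.00, edgeR adjusted p = 0.000116). The change was 0.69 in the Xbp1 line and 0.85 in the Ire1-Xbp1 line, with a difference of 0.16 (interval −0.32 to 0.63).

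MIMAT0004583 rose at a much lower level. Its levels in the Xbp1 line were 448, 503, 517 and 477 CPM in wild-type and 773, 654, 737 and 677 CPM in deficient libraries. In the Ire1-Xbp1 line the values were 612, 433, 505 and 399 CPM in the wild type and 830.5, 817, 812 and 592 CPM in compound-deficient cells. The groups were separate in the Xbp1 line, whereas in the Ire1-Xbp1 line 1 deficient library lay below the highest wild-type library. The mean rose from 487 ± 64.8 CPM (SD, n = 8) to 736 ± 87.5 CPM, or by 0.60 on the log2 scale (SE 0.11, interval 0.36 to 0.83, edgeR adjusted p = 0.00101). The change was 0.55 in the Xbp1 line (adjusted p = 0.0793) and 0.65 in the Ire1-Xbp1 line (adjusted p = 0.0174) in the edgeR fit of 4 group means, with a difference of 0.11 (interval −0.36 to 0.57). Which line passed depended on the fit. With each line fitted alone, the edgeR adjusted p was 0.0225 in the Xbp1 line and 0.0746 in the Ire1-Xbp1 line.

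**Figure D2:**
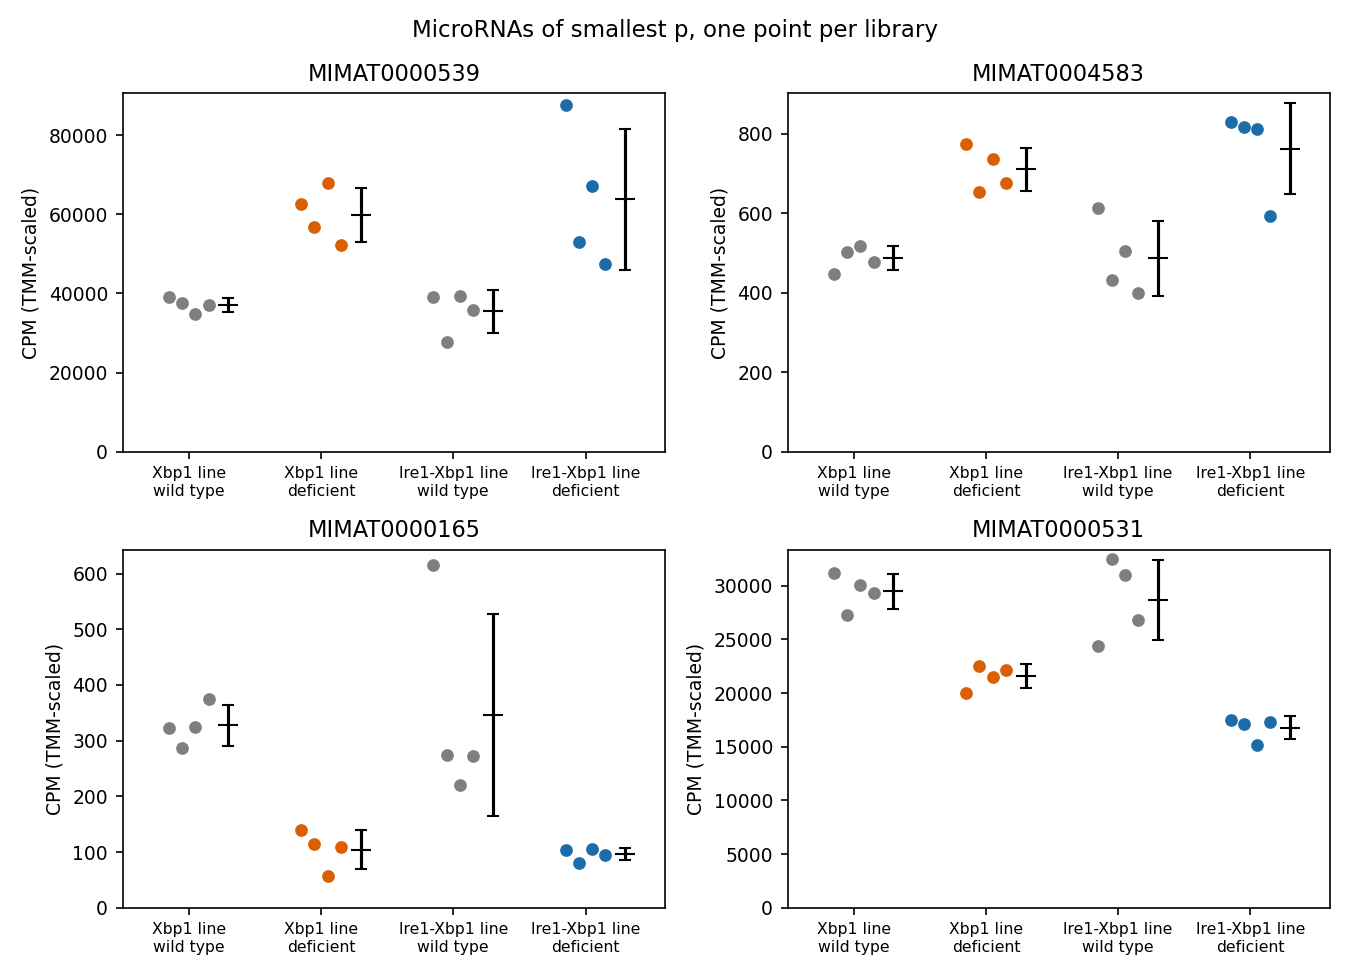
CPM (vertical axes, from 0) of the 4 identified microRNAs in each library, 1 point per library, 4 libraries in each of 4 groups, with the mean and SD beside the points. MIMAT0000539 and MIMAT0004583 are higher and MIMAT0000165 and MIMAT0000531 lower in deficient libraries of both lines, and ranges of all deficient and all wild-type libraries overlap for MIMAT0004583 but not for the other 3.

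Full separation of deficient from wild-type libraries was rare. Deficient and wild-type ranges, 8 libraries each, did not overlap for 6 of 255 microRNAs (2.35%), 1 higher and 5 lower. All 6 were among the 21 that changed, which were called on these same values. Separation within each line in the same direction was seen for 9 of 255 (3.53%), 2 higher and 7 lower, again all among the 21.

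The change had the same sign in both lines for all 21 microRNAs, the 8 that rose and the 13 that fell, when each line was estimated on its own in an edgeR fit of 4 group means. A microRNA called on the average of the lines is likely to show this, so it is no separate support. Among the 234 microRNAs that did not pass, 131 had the same sign in both lines. In that fit 6 of 255 microRNAs (2.35%) passed in the Xbp1 line, 1 higher and 5 lower, and 15 (5.88%) in the Ire1-Xbp1 line, 9 higher and 6 lower. These comparisons use the same libraries as the average and are not independent of it. Of the 21 microRNAs called on average, 4 passed in both lines, 2 in the Xbp1 line alone, 6 in the Ire1-Xbp1 line alone and 9 in neither, 4 that rose and 5 that fell. The median standard error of a log2 fold change was 0.25 for the average, 0.35 for the Xbp1 line and 0.36 for the Ire1-Xbp1 line. The 9 microRNAs that passed in neither line had a median level of 126 CPM and standard errors between 0.12 and 0.88.

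Which line gave calls beyond those on average depended on the fit. With 4 group means, all 6 microRNAs called in the Xbp1 line were also called on average, and 5 of the 15 called in the Ire1-Xbp1 line were not. With the 8 libraries of each line fitted alone, 2 of 11 called in the Xbp1 line and 1 of 9 called in the Ire1-Xbp1 line were not among the 21. The 5 of the group means fit were higher in compound-deficient cells and had average log2 fold changes between 0.17 and 0.41. One of them, MIMAT0000210, at 0.50 in the Ire1-Xbp1 line (edgeR adjusted p = 0.0189), did not pass when that line was fitted alone (0.46, edgeR adjusted p = 0.0716). A difference between the lines' changes passed for 0 of 255 microRNAs (0%) in edgeR (smallest adjusted p 0.208). An unadjusted p under 0.05 was seen for 26, and DESeq2 called 1 and limma voom 0. Among the 21, 2 had an unadjusted p under 0.05 for that difference, MIMAT0000531 and 1 other that fell. The median standard error of the difference over the 21 was 0.37, so these libraries do not resolve small differences between the lines.

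**Figure D3:**
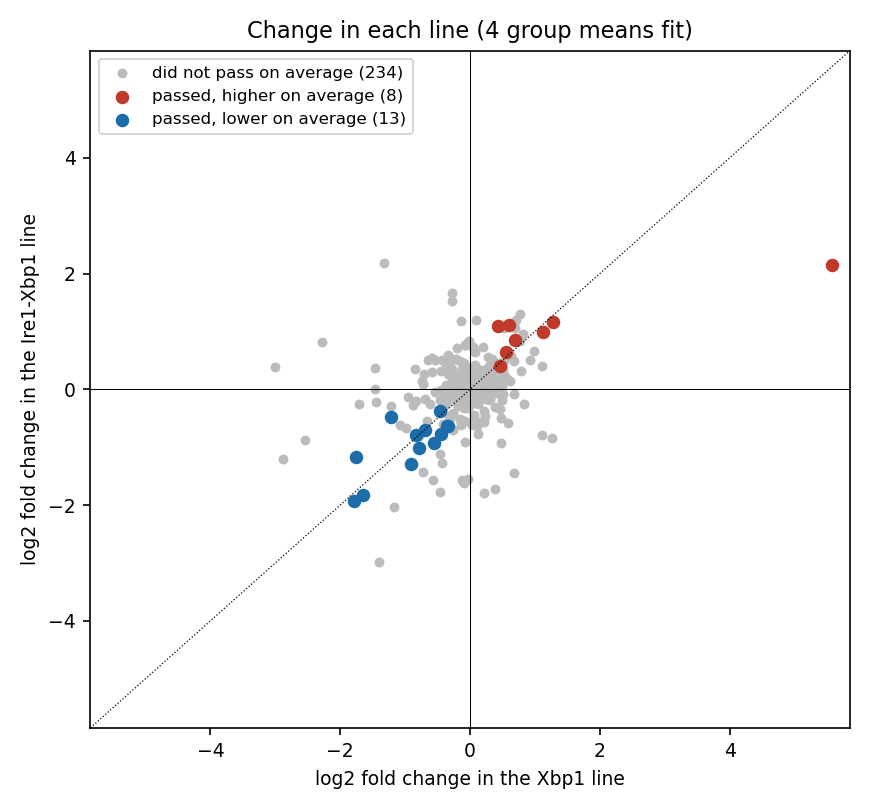
Log2 fold change in the Ire1-Xbp1 line (vertical axis) against that in the Xbp1 line (horizontal axis), 1 point per microRNA, with the line of equal change dotted. The 8 microRNAs that passed as higher on average lie in the upper right and the 13 that passed as lower in the lower left part.

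Calls were more frequent among abundant microRNAs, where the error was smaller. In the most abundant of 3 equal groups, from 286 to 258098 CPM, 4 rose and 8 fell of 85 (14.1%), with a median standard error of 0.12 and a smallest called change of 0.42. In the middle group, from 34.6 to 281 CPM, 3 rose and 4 fell of 85 (8.24%), with a median standard error of 0.24. In the least abundant group, from 4.86 to 34.5 CPM, 1 rose and 1 fell of 85 (2.35%), the median standard error was 0.46 and both called changes were at least 1.86 in size. The microRNAs that rose had a median level of 316 CPM and those that fell one of 2087 CPM. The 95% interval lay within a 2-fold change in either direction for 155 of the 234 microRNAs that did not pass, for 71 of 73 in the abundant group but 25 of 83 in the least abundant one. It lay within 1.5-fold for 84. For most of the least abundant microRNAs that did not pass, the interval therefore did not exclude a 2-fold change.

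Together the 8 microRNAs that rose took a mean of 3.90% of the counts in wild-type (3.41% to 4.30%, n = 8) and of 6.16% in deficient libraries (5.18% to 8.57%, n = 8). Nearly all of this was MIMAT0000539, with 3.75% ± 0.278 (SD) and 5.93% ± 1.11, whereas the other 7 together held 0.153% ± 0.0272 and 0.236% ± 0.0544. The 13 that fell took 6.59% ± 0.876 of the counts in wild-type and 3.81% ± 0.522 in deficient libraries. The lowest wild-type library held 5.28% and the highest deficient one 4.73%. These sums were formed from microRNAs called on the same libraries and are a description of how much of the repertoire was involved.

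Deficient libraries were more dominated by their most abundant microRNAs. The 10 most abundant microRNAs of each library took 76.9% ± 1.25 of the counts (SD, n = 8) in deficient and 74.1% ± 1.13 in wild-type libraries, a mean difference within lines of 2.79 percentage points. The exact two-sided permutation test with labels exchanged within each line gave p = 0.000408, the smallest that 4900 relabelings allow, and an adjusted p over 3 library measures of 0.00122. The difference was 3.18 points within the Xbp1 line and 2.40 points within the Ire1-Xbp1 line. Each line alone cannot give an exact p under 0.0286, and both gave an adjusted p of 0.0857. All 4 deficient libraries of a line exceeded its 4 wild-type libraries. Across lines, the lowest deficient library, at 74.8% in the Ire1-Xbp1 line, was below the highest wild-type library of the Xbp1 line, at 75.8%. Within both groups of the Xbp1 line, deeper libraries had the higher share. Wild-type libraries ran from 73.2% at 400210 counts to 75.8% at 1103001 counts. Deficient ones ran from 76.2% at 783372 counts to 78.8% at 1403393 counts. In the Ire1-Xbp1 line the shares did not follow the order of depth. The share was not tested against depth.

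**Figure D4:**
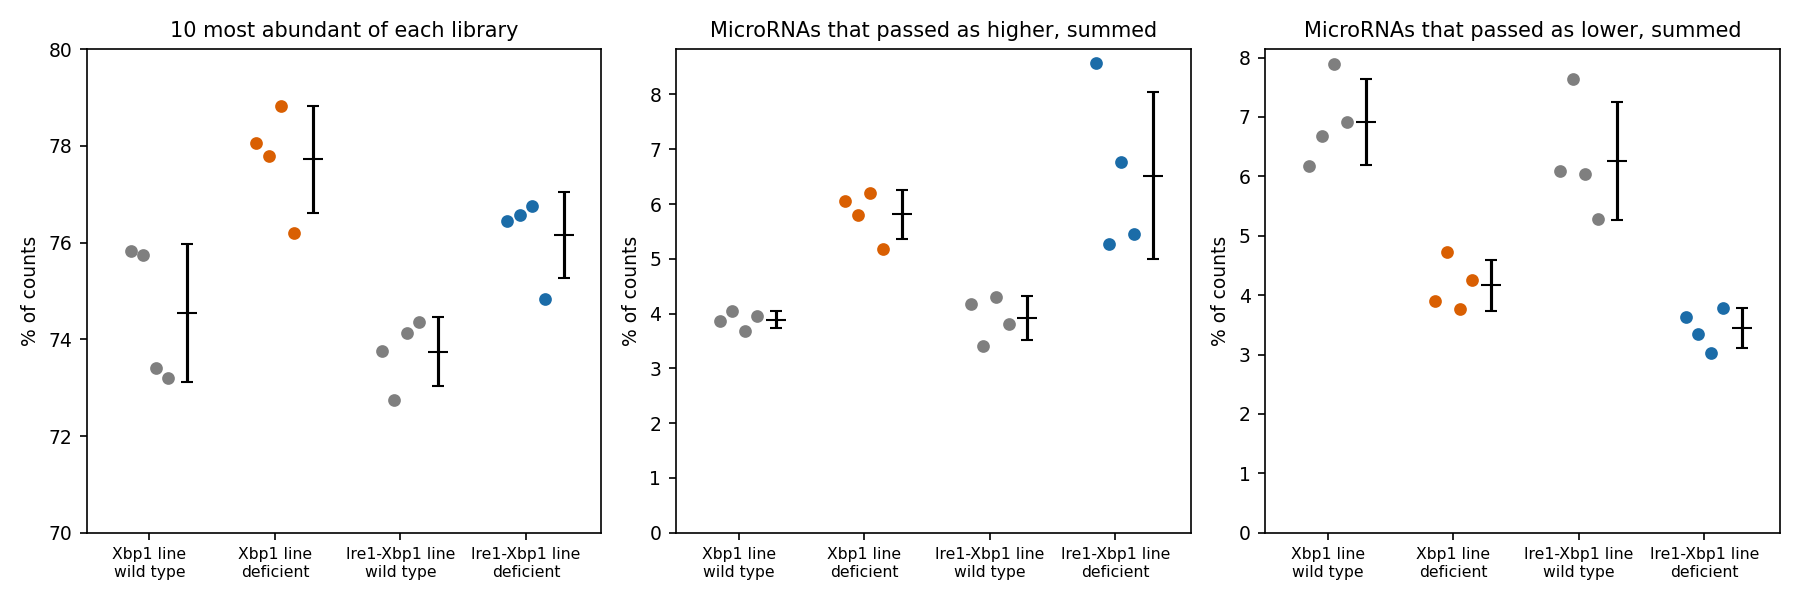
Percent of the counts of each library (vertical axes) taken by its 10 most abundant microRNAs (left, axis from 70% to 80%), by the 8 microRNAs that passed as higher (middle) and by the 13 that passed as lower (right), 1 point per library in 4 groups of 4, with mean and SD. In each line the 4 deficient libraries lie above the wild type on the left and in the middle and below it on the right.

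The microRNAs with the largest gains in share were not the same in both lines, although for none of them did the difference between the lines pass in edgeR with TMM scaling. The 10 microRNAs of highest mean share were themselves the top 10 in 9 of the 16 libraries, and 9 of them were in each of the others. As a fixed set these 10 gained 3.14 points in the Xbp1 line and 1.73 points in the Ire1-Xbp1 line. For the 10 most abundant of each library the differences were 3.18 and 2.40 points. MIMAT0000525, the most abundant, gained 7.72 points in the Xbp1 line, where wild-type libraries held 24.9% ± 3.72 (SD, n = 4) and deficient ones 32.6% ± 2.96, against −0.97 points in the Ire1-Xbp1 line. MIMAT0000210, next in abundance, differed by −2.10 points in the Xbp1 line and by 4.05 points in the Ire1-Xbp1 line, from 12.7% ± 2.02 to 16.7% ± 2.19. MIMAT0000539 added 1.86 and 2.49 points and was the only 1 of the 10 with a higher share in the deficient cells of both lines. Another 4 had a lower share in both, MIMAT0000531 among them, and 5 moved in opposite directions. These signs hold for shares of all counts and depend on the scaling. With TMM, the log2 change of MIMAT0000525 was above 0 in both lines, at 0.49 in the Xbp1 line and 0.05 in the Ire1-Xbp1 line. Without MIMAT0000525, MIMAT0000210 and MIMAT0000539, the summed share of the other 7 differed by −4.33 points in the Xbp1 line and by −3.85 points in the Ire1-Xbp1 line. MIMAT0000525 and MIMAT0000210 were picked as the largest gain of a line, and MIMAT0000539 was called higher on these libraries. That choice favours a negative remainder, which is therefore a description only.

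On average neither MIMAT0000525 nor MIMAT0000210 passed, and both are named here after their values were seen. In the Xbp1 line, MIMAT0000525 stood at 297125, 265755, 215453 and 207322 CPM in wild-type and at 371547, 337392, 382353 and 296506 CPM in deficient libraries. In the Ire1-Xbp1 line it stood at 252316, 185281, 187349 and 238332 CPM in the wild type and at 252979, 261990, 205135 and 172737 CPM in compound-deficient cells. The ranges just overlapped in the Xbp1 line and overlapped widely in the Ire1-Xbp1 line. Its average log2 fold change was 0.27 (SE 0.12, edgeR adjusted p = 0.180), and the lines differed by −0.45 (interval −0.89 to 0.00, adjusted p = 0.474). Upper-quartile scaling put this difference at −0.83 (edgeR adjusted p = 0.0695).

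For MIMAT0000210 the Xbp1-line levels were 121522, 128349, 122236 and 124403 CPM in wild-type and 99638, 100833, 129510 and 116626 CPM in deficient libraries. In the other line the wild type held 113073, 91832, 144779 and 130788 CPM and the compound-deficient cells 153782, 159709, 195323 and 169386 CPM. With TMM scaling the groups were thus separate in the Ire1-Xbp1 line only. Shares of all counts gave the reverse. The highest deficient library of the Xbp1 line held 11.5% and its lowest wild-type library 11.7%, so these groups were separate. In the Ire1-Xbp1 line the lowest deficient library held 14.6% and the highest wild-type library 15.3%, so these overlapped. The average log2 fold change was 0.17 (SE 0.12, edgeR adjusted p = 0.471), and the lines differed by 0.65 (interval 0.27 to 1.03, adjusted p = 0.208). Upper-quartile scaling put this difference at 0.27 (edgeR adjusted p = 0.469), so its size depends on the scaling.

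**Figure D5:**
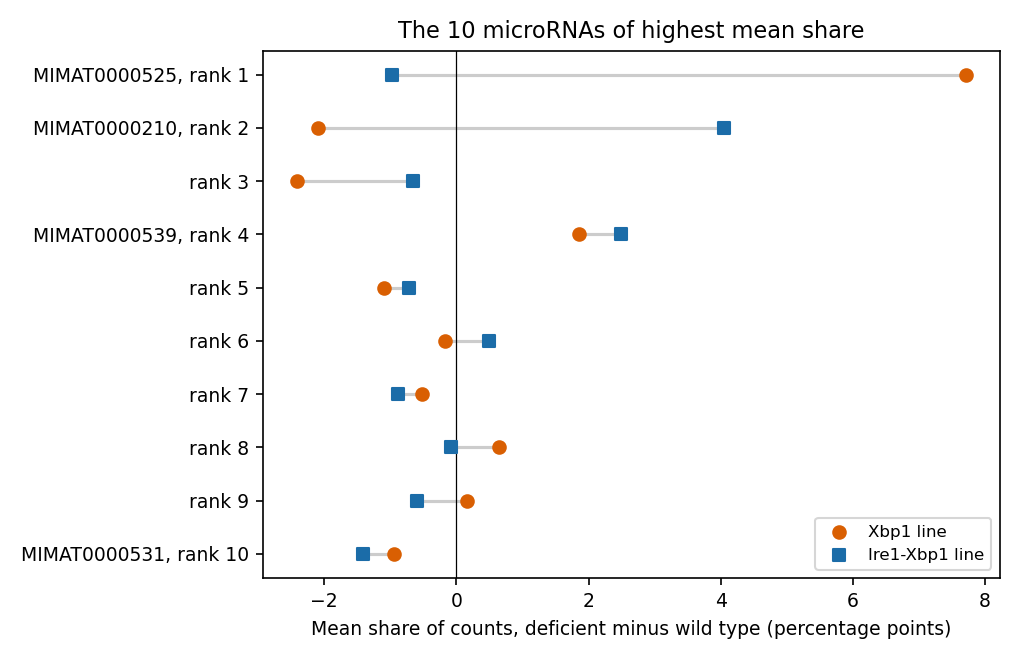
Mean share of the counts in deficient minus wild-type libraries, in percentage points (horizontal axis), of the 10 microRNAs of highest mean share, ranked from 1 (top) to 10, in the Xbp1 line (circles) and the Ire1-Xbp1 line (squares). MIMAT0000525 and MIMAT0000210 lie on opposite sides of 0 in the 2 lines, whereas MIMAT0000539 is above 0 and MIMAT0000531 below 0 in both. Shares are of all counts, without TMM scaling, with which MIMAT0000525 was above 0 in both lines.

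Single libraries moved the number of calls but not the direction of the 21 microRNAs. A fit without 1 library reuses the rest, on which the 21 were called, so a kept sign or pass is likely. It is therefore no separate support. With each of the 16 libraries left out in turn, edgeR called 15 to 23 microRNAs, all 21 kept their sign, and 14 of the 21, 5 that rose and 9 that fell, passed in each of the 16 fits. Another 4 passed in 8 to 15 fits and 3 in fewer than 8. The 4 identified microRNAs passed in all 16 fits, with log2 fold changes of −1.82 to −1.58 for MIMAT0000165, −0.67 to −0.57 for MIMAT0000531, 0.65 to 0.80 for MIMAT0000539 and 0.54 to 0.62 for MIMAT0004583. The division into higher and lower depended on the scaling: 5 higher and 18 lower passed with library totals alone, which moved the median of all microRNAs to −0.11 on the log2 scale, against 8 and 13 with TMM.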

How the data were processed

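Small RNA was sequenced from sorted splenic cDC1s in 16 libraries, 4 in each of 4 groups; group and replicate number come from the sample descriptions. The authors deposited raw counts (whole reads per mature microRNA, 853 microRNAs, 45 at 0 throughout) and log2 values for 473 microRNAs. From the values, the deposited log2 table is a log2 CPM of the count plus 0.5 on a scaled library size. Named in the submitters' processing notes, with no role, are Bowtie 1.1.2, cutadapt 1.8.1, limma 3.42.2 and FastQC 0.11.3, and as builds mm10 and GRCm38. Near-identical microRNAs may share reads, since the handling of multiple matches is not given in the sources used here. No molecular identifiers are stated, so counts may hold PCR copies.

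The counts were tested with edgeR 4.0.16 (R 4.3.3): TMM, filterByExpr by the 4 groups (count minimum 10; 255 tested, 598 not, lowest share of a library's counts kept 99.87%), a quasi-likelihood fit with line and deficiency, two-sided, Benjamini-Hochberg threshold 0.05. The common biological coefficient of variation was 31.6%. Each standard error was taken from the F statistic of its test. Steps were tested on simulated data. Alternatives used DESeq2 1.42.0, limma 3.58.1 and the settings named in the closing section.

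The comparison, tests, lists and naming rule were chosen with earlier results of these data known. The rule, all called microRNAs plus list members, was limited to the top 2 by p per direction, because 0 identifiers matched a name in the reference tables; for the same reason 26 lists of families and markers of other cell types could not be applied, and no sequence is printed. MIMAT0000525, MIMAT0000210 and MIMAT0000249 were named after their values were seen. No replicate pair of a group differed by as little as counting noise (lowest chi-square over its degrees of freedom 18.3).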

Additional observations from a re-analysis of the deposited data

Results flagged for a closer look

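Libraries are listed where the gap to the nearest other library of a group of 4, as a share of the range of that group, exceeded Dixon's 95% critical value. Chance gives this for about 1 in 20 groups, and 3 of 36 groups of values were found. In compound-deficient replicate 4, the shallowest library, MIMAT0004583 stood at 592 CPM against 812 to 830.5 CPM in the other 3, and the gap as a share of the log2 range was 0.933. Without that library its average log2 fold change was 0.62 (edgeR adjusted p = 0.00033), against 0.60 with it. In compound-deficient replicate 3, MIMAT0000531 stood at 15152 CPM against 17131 to 17514 CPM, with the gap at 0.847 of the log2 range, and the average was −0.59 (edgeR adjusted p = 0.000479) without it. The 10 most abundant microRNAs took 74.8% of the counts in compound-deficient replicate 4 against 76.5% to 76.8% in the others, with the gap at 0.840 of the range, and the mean difference within lines was 3.01 percentage points without it.

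With TMM scaling, MIMAT0000249 was the only microRNA of 255 whose deficient libraries lay wholly on opposite sides of the wild type in the lines. It stood at 836 to 1046 CPM in the Xbp1-line wild type and at 671 to 831 CPM in Xbp1-deficient cells. In the Ire1-Xbp1 line the wild type held 671 to 842 CPM and the compound-deficient cells 846 to 1031 CPM. The groups of that line were barely apart, and the 846 CPM rested on 160 raw counts. As shares of all counts they just overlapped, at 0.088536% in 1 deficient and 0.088538% in 1 wild-type library. The log2 changes were −0.29 and 0.22. They differed by 0.51 (SE 0.19, interval 0.12 to 0.90; edgeR adjusted p = 0.293), which did not pass and was 0.12 with upper-quartile scaling. On average over both lines the log2 fold change was −0.04 (interval −0.27 to 0.20).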

How the results depend on the processing

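Against 21 calls on average (8 higher, 13 lower), edgeR called 15 (5 higher) without the line term, 23 (5 higher) with library totals alone and 24 (13 higher, 11 lower) of 162 tested after thinning, 11 in the Xbp1 line alone (4 higher, 7 lower) and 9 in the Ire1-Xbp1 line alone (3 higher, 6 lower). With each library left out in turn it called 15 to 23, 6 to 9 higher and 9 to 15 lower. DESeq2 called 29, all 21 among them. Leaving out the shallowest library of the series and that of the Xbp1-line wild type together, an alternative chosen after seeing the data, gave 17. The difference between the lines, 0 in edgeR, was called for 3 microRNAs with upper-quartile scaling, 2 without the filter, 1 with DESeq2, 1 after thinning and 0 with any 1 library left out. MIMAT0004583 missed the threshold in the Ire1-Xbp1 line alone (edgeR adjusted p = 0.0746) and passed in the Xbp1 line alone (edgeR adjusted p = 0.0225). MIMAT0000525 passed on average without the filter (edgeR adjusted p = 0.0332). The average of MIMAT0000210 was −0.17 in the Xbp1 line alone. Fits of 1 line hold fewer libraries, and fewer microRNAs were tested after thinning. The cause of these shifts was not tested.

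The share of the 10 most abundant microRNAs differed by 2.57 to 3.05 percentage points with 1 library left out and by 3.18 and 2.40 in the lines alone. In a line alone the smallest possible exact permutation p is 0.0286, and adjustment over 3 library measures gave 0.0857 in both lines. The number of microRNAs detected after thinning, 0.25 higher in deficient libraries, ranged from −5.83 to 6.33 with 1 library left out and was −5 in the Ire1-Xbp1 line. The difference in log2 total, 0.15, ranged from −0.039 to 0.37 with 1 library left out. It was 0.44 in the Xbp1 line and −0.13 in the Ire1-Xbp1 line.

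With line and replicate number as a replicate block, edgeR called 8 microRNAs, 3 higher and 5 lower, 7 of them among the 21; MIMAT0004583 was at 0.64 (edgeR adjusted p = 0.0557) and the lines' difference for MIMAT0000525 at 0.046. Only 5 numbers recur within a line, so 6 Xbp1-line libraries do not inform that fit. The numbers are not stated to mark shared mice or days: the deviations of same-numbered libraries correlated between −0.26 and 0.26, and 3 of 8 Ire1-Xbp1-line libraries correlated best with their own number.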
